A study of Homo sapiens with 9 samples.

Results

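The TGF-beta receptors and SMADs are described here through a given set of 10 genes, found by symbol among the 58735 genes of the deposited count table: the ligand TGFB1, the receptors TGFBR1, TGFBR2 and BMPR2, the signal transducers SMAD2, SMAD3 and SMAD4, and the inhibitors SMAD7, SKI and SKIL. They were chosen by the measured level of 1 of them: TGFBR2 was already known to stand higher than control with both NFATC2 shRNAs in these libraries, and the pathway around it was added. The difference of TGFBR2 from control is therefore given as a description without a test, and it is left out of every count of genes that passed one. All 10 genes were among the 14975 that had enough counts to be tested.

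The libraries came from THP-1, an established human acute myeloid leukaemia line of monocytic character that carries the MLL-AF9 fusion. Every group received a lentiviral shRNA: the control group a non-targeting hairpin called SHX2, and the others the hairpin shRNA-143 or shRNA-146, both directed at NFATC2, a calcium-regulated transcription factor. All groups shared the same handling, which was spinoculation with virus packaged in 293T cells, puromycin from 24 hours and harvest of polyadenylated RNA at 48 hours. Each group had 3 libraries, numbered 1 to 3. The series calls them biological replicates, the sources used here do not say that they were separate cultures, and p-values measure the spread between these libraries. The transduced cells are a mixed selected population of a single line, without a hairpin-resistant NFATC2 control among the groups.

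In this pathway a ligand dimer such as TGF-beta 1 binds the type II receptor kinase TGFBR2, which phosphorylates the type I receptor TGFBR1. TGFBR1 then phosphorylates SMAD2 and SMAD3, which join SMAD4 and enter the nucleus to regulate genes. SMAD7 blocks the receptor complex and SKI and SKIL repress SMAD-bound genes, while BMPR2 serves the related bone morphogenetic protein branch. In myeloid cells the pathway is known for restraining proliferation and for shaping monocyte and macrophage differentiation.

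Library totals ran from 40047459 to 44669709 counts. NFATC2, the targeted gene, stood at 12.7, 27.6 and 27.4 CPM (counts scaled to a common library size, here by the trimmed mean of M values, TMM) in control replicates 1, 2 and 3. It stood at 1.49, 7.40 and 6.95 CPM with shRNA-143 and at 2.59, 6.71 and 9.43 CPM with shRNA-146, so every knockdown library lay below every control library. Libraries with the same number deviated from their group means together, and those numbered 1 stood apart from the rest. For that reason 2 fits are given for each test: the fit of the 3 group means, and the fit that also holds the replicate number as a block. NFATC2 fell in the fit with the block, by 2.27 ± 0.24 (SE, log2) with shRNA-143 and by 1.96 ± 0.23 with shRNA-146 (edgeR adjusted p = 0.00168 and 0.00435). Without the block its adjusted p was 0.497 and 0.464. All 18 monocytic and myeloid markers of a list had counts, with a summed level of 2720 to 3300 CPM in control, 2360 to 3690 with shRNA-143 and 2070 to 3410 with shRNA-146. Summed markers of T cells were at 1.03 to 1.09, 1.35 to 2.13 and 1.38 to 1.57 CPM in the same order, 4 of 7 being at 0 in every library. Those of B cells were at 25.2 to 31.2, 29.1 to 42.3 and 25.8 to 46.0 CPM. Markers of fibroblasts and epithelium summed to 6.17 to 8.38, 5.2 to 6.73 and 4.11 to 6.59 CPM, and erythroid and platelet markers stayed under 1 CPM in all 9 libraries. In the fit with the block MPO, a granule enzyme of myeloid cells, fell by 0.60 ± 0.13 and 0.82 ± 0.13 (adjusted p = 0.0372 and 0.0107), IL7R of the T cell list rose with shRNA-143 by 1.75 ± 0.40 (0.0426) at 1.39 CPM or less, and KRT8 fell with shRNA-146 by 0.85 ± 0.20 (0.0380). The part of these markers in the results below was not tested.

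Of the receptors, TGFBR2, which binds the ligand first, stood at about the same level in the libraries of each group. It was at 29.8, 26.7 and 25.4 CPM in control, at 49.3, 47.4 and 47.6 CPM with shRNA-143 and at 58.6, 54.2 and 52.8 CPM with shRNA-146. The 3 groups did not overlap: each shRNA-143 library was above each control library and each shRNA-146 library above each shRNA-143 library. Means were 27.3 ± 2.22, 48.1 ± 1.0 and 55.2 ± 3.04 CPM (SD, n = 3), which is a log2 difference from control of 0.82 ± 0.16 (SE) and 1.02 ± 0.16. Within replicate numbers 1, 2 and 3 the ratio to control was 1.66, 1.78 and 1.87 with shRNA-143 and 1.97, 2.03 and 2.08 with shRNA-146. Over all alternatives run, including the loss of any library, the log2 difference lay between 0.77 and 0.92 for shRNA-143 and between 0.97 and 1.15 for shRNA-146. The authors' deposited tables give 0.83 and 1.02 for the same comparisons. In RNA from a whole culture, fewer cells that express a gene and less RNA per cell cannot be told apart, here or for any gene that follows.

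A window upstream of TGFBR2 is shown because the silenced factor belongs to a family whose proteins bind the letters GGAAA. RefSeq gives several starts for some genes, and the 250 bases before the most upstream start whose window overlaps no GENCODE 29 exon were taken. For TGFBR2 they (GRCh38.p14, chr3:30606106-30606355, plus strand) are printed 5′ to 3′ with each GGAAA in capitals, and the search covered both strands. The window ends upstream of the gene as GENCODE 29 annotates it (chr3:30606502-30694142) and overlaps none of the annotated exons. The bases next to that annotated start were thus not searched.
TGFBR2: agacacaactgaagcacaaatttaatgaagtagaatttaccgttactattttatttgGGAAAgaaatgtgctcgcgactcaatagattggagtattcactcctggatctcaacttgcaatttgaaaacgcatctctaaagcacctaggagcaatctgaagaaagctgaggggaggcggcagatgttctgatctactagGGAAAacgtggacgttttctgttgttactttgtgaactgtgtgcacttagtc
The window holds 2 GGAAA matches, both on the gene's own strand. Of the 35116 windows of that length before all RefSeq starts, taken without the exon rule, 55.6% hold at least 1 on either strand. It holds neither the SMAD box CAGAC, which 38.0% of windows hold, nor the SP1 box GGGCGG, which 42.6% hold. Its GC content is 40.8%. These are matches of letters, and binding was not measured here.

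TGFBR1, the type I receptor that pairs with TGFBR2, did not pass the test with either hairpin. TGFBR1 was at 90.6, 73.5 and 56.1 CPM in control, at 81.7, 62.0 and 33.5 CPM with shRNA-143 and at 116, 83.8 and 44.4 CPM with shRNA-146. The groups overlapped, and in each group replicate 1 was highest and replicate 3 lowest. Its log2 fold change was -0.31 ± 0.40 with shRNA-143 and 0.15 ± 0.40 with shRNA-146 (adjusted p = 0.937 and 0.947). Holding the block it was -0.39 ± 0.15 and 0.06 ± 0.15 (adjusted p = 0.187 and 0.841). BMPR2, the type II receptor of the bone morphogenetic protein branch, was at 24.8, 38.1 and 31.1 CPM in control, 29.6, 44.4 and 43.2 CPM with shRNA-143 and 46.0, 46.2 and 35.0 CPM with shRNA-146. It was above control within all 3 replicate numbers for both hairpins, yet the groups overlapped. Its log2 fold change of 0.32 ± 0.24 and 0.44 ± 0.24 did not pass (adjusted p = 0.910 and 0.655, with the block 0.329 and 0.15).

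Among the transducers, SMAD3 was the member whose groups separated. SMAD3 was at 18.0, 20.6 and 18.1 CPM in control, at 24.9, 32.5 and 36.4 CPM with shRNA-143 and at 25.5, 31.9 and 36.3 CPM with shRNA-146. Every knockdown library lay above every control library, a separation upward that 7.09% and 7.25% of tested genes showed in the comparisons with shRNA-143 and shRNA-146. The means were 18.9 ± 1.46, 31.3 ± 5.85 and 31.2 ± 5.47 CPM (SD, n = 3). SMAD3 rose in the fit with the block, by 0.70 ± 0.15 and 0.71 ± 0.15 on the log2 scale (adjusted p = 0.0317 and 0.0277). Without the block the change was 0.72 ± 0.21 with each hairpin and missed the threshold of 0.05 (adjusted p = 0.479 and 0.419). It was passed again over replicates 2 and 3 alone, without the block, at 0.84 and 0.82 (adjusted p = 0.0133 and 0.0132), where 589 and 951 genes passed.

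The SMAD3 call in the fit with the block depended on single libraries. With shRNA-143 it held without shRNA-146 replicate 1 or 3, and leaving out any of the other 7 libraries gave an adjusted p of 0.0546 to 0.224. With shRNA-146 it held without shRNA-143 replicate 1 or shRNA-146 replicate 1, and the other 7 libraries gave 0.0508 to 0.146. The fold change itself stayed between 0.56 and 0.82 for both hairpins in those fits. With a correction of each library for gene length and GC content it was 0.58 and 0.54 (adjusted p = 0.0108 and 0.0142), where 1336 and 1547 genes passed. SMAD3 shares 182 exonic bases with AC087482.1 on the opposite strand, and whether counting used strand is not stated in these sources.

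SKI, described below, also rose in the fit with the block, but the RefSeq starts used here include none for it. The start region of SMAD3 is printed as that of a SMAD gene that rose in that fit, for comparison with TGFBR2 (RefSeq, GRCh38.p14, chr15:67065352-67065601, plus strand, GGAAA in capitals). It lies within the GENCODE 29 span of the gene (chr15:67063763-67195195) and in none of its exons.
SMAD3: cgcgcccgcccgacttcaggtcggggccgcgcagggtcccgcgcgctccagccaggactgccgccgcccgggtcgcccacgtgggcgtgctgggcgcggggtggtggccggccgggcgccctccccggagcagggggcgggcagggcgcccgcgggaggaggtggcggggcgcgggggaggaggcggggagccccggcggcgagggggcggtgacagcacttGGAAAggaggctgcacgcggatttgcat
It holds 1 GGAAA match and 4 SP1 boxes on either strand, no SMAD box, and a GC content of 80.8%.

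SMAD2, the transducer that acts in parallel with SMAD3, did not pass with either hairpin in these fits. SMAD2 was at 98.0, 70.0 and 81.5 CPM in control, 93.2, 64.7 and 72.7 CPM with shRNA-143 and 116, 65.9 and 61.1 CPM with shRNA-146. The groups overlapped, and the log2 fold change was -0.11 ± 0.28 and -0.04 ± 0.28 (adjusted p = 0.955 and 0.983, with the block 0.682 and 0.788). With the block and the correction for length and GC content it was -0.51 with shRNA-146 (adjusted p = 0.0284), where 1547 genes passed. SMAD4, the shared partner of SMAD2 and SMAD3, was at 47.7, 38.6 and 33.7 CPM in control, 51.1, 38.2 and 37.1 CPM with shRNA-143 and 68.9, 40.3 and 36.4 CPM with shRNA-146. Its highest library was shRNA-146 replicate 1, and the other libraries of that group lay within the range of control. The change of 0.08 ± 0.28 and 0.28 ± 0.28 did not pass (adjusted p = 0.969 and 0.844, with the block 0.803 and 0.334). SMAD4 shares 967 exonic bases with AC091551.1 on the same strand.

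SKI, the corepressor that binds SMAD complexes on DNA, had the largest SD relative to its mean of the 10 members in each group. SKI was at 16.3, 87.7 and 48.7 CPM in control, at 37.5, 160 and 95.5 CPM with shRNA-143 and at 21.7, 135 and 106 CPM with shRNA-146. Replicate 1 was lowest in each group, and the groups overlapped widely. Within numbers 1, 2 and 3 the ratio to control was 2.30, 1.82 and 1.96 with shRNA-143 and 1.33, 1.54 and 2.18 with shRNA-146. SKI rose in the fit with the block, by 1.02 ± 0.17 and 0.74 ± 0.17 (log2; adjusted p = 0.0140 and 0.0407). Without the block the change was 0.94 ± 0.77 and 0.78 ± 0.76 and did not pass (adjusted p = 0.928 and 0.839). The call with shRNA-143 was lost without any 1 control library or without shRNA-143 replicate 1 or 2 (adjusted p = 0.0593 to 0.112). That with shRNA-146 held without shRNA-143 replicate 1 or shRNA-146 replicate 1, and without any other library the adjusted p was 0.0596 to 0.216.

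SKIL, the close relative of SKI, and SMAD7, the inhibitor that TGF-beta signalling itself induces, did not pass. SKIL was at 48.9, 69.3 and 52.7 CPM in control, 53.6, 90.9 and 49.2 CPM with shRNA-143 and 64.7, 81.1 and 39.4 CPM with shRNA-146. Its groups overlapped, with a log2 fold change of 0.18 ± 0.32 and 0.12 ± 0.32 (adjusted p = 0.937 and 0.948, with the block 0.684 and 0.833). SMAD7 was at 7.46, 15.3 and 11.9 CPM in control, 8.77, 21.9 and 12.6 CPM with shRNA-143 and 8.53, 25 and 19.4 CPM with shRNA-146. It was higher than control within all 3 numbers for both hairpins while the groups overlapped. With the block its change was 0.28 ± 0.17 and 0.55 ± 0.17 (adjusted p = 0.376 and 0.0895). For shRNA-146 it passed with the block when a correction for length and GC content was added (0.54, adjusted p = 0.0211) or over replicates 2 and 3 alone (0.71, adjusted p = 0.0157). In those fits, chosen after seeing the data, 1547 and 2111 genes passed with shRNA-146, beside 662 in the fit with the block.

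TGFB1, the ligand, did not pass with either hairpin. TGFB1 was at 175, 306 and 281 CPM in control, 224, 295 and 275 CPM with shRNA-143 and 132, 366 and 375 CPM with shRNA-146. Replicate 1 was lowest in every group, and the groups overlapped. Its log2 fold change was 0.06 ± 0.38 and 0.20 ± 0.38 (adjusted p = 0.984 and 0.925, with the block 0.800 and 0.760). TGFB1 shares 215 exonic bases with HNRNPUL1 on the opposite strand.

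**Figure D1:**
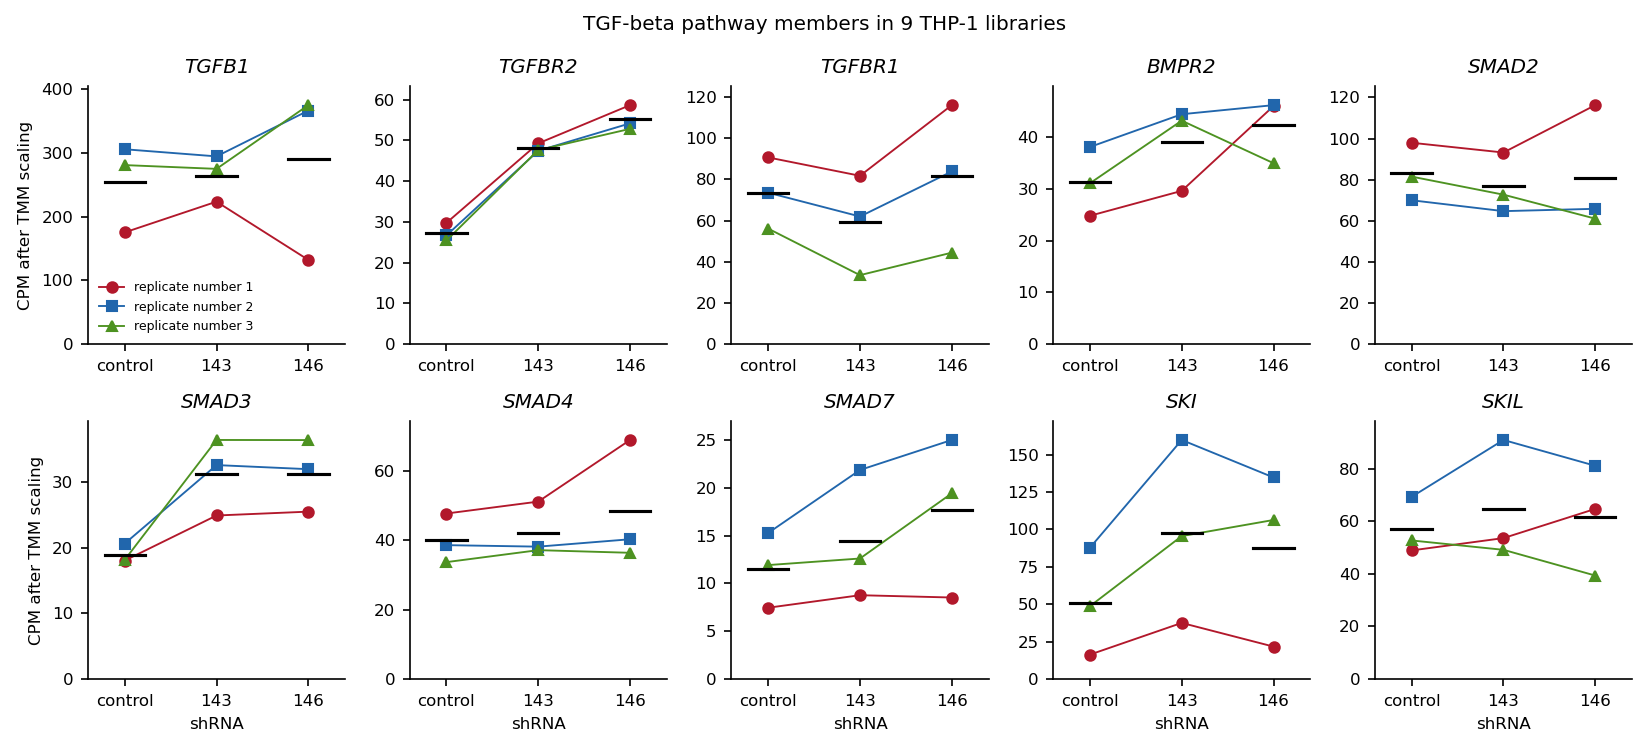
CPM after scaling (vertical axis, linear and from 0, 1 panel per gene) in control, shRNA-143 and shRNA-146 libraries, with lines joining libraries of the same replicate number and a black bar at each group mean. TGFBR2 climbs in every number from 25.4 to 29.8 CPM in control to 52.8 to 58.6 CPM with shRNA-146, SMAD3 lies above 24 CPM in all knockdown libraries, and SKI lies at a separate height for each replicate number.

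Counted together without TGFBR2, 0 of 9 members passed in either comparison in the fit without the block, where 0.0467% and 0.0334% of tested genes passed with shRNA-143 and shRNA-146. At an unadjusted p under 0.05 there was 1 of 9 in each, SMAD3, beside 6.80% and 8.81% of all tested genes. DESeq2 also passed 0 of 9, where 151 and 162 of all tested genes passed. With the block 2 of 9 rose in each comparison, SMAD3 and SKI, and 0 fell. The background of that fit was 3.17% of tested genes with shRNA-143, 1.60% upward, and 4.42% with shRNA-146, 2.46% upward. The median log2 fold change of the 9 members was 0.14 and 0.24 in that fit, against 0.00445 and 0.0216 over all tested genes. The latter are not matched in length. SMAD2, SMAD3, SMAD4, BMPR2 and SKIL are in the longest of 5 length bins, whose medians were 0.16 and 0.21 in that fit. Higher than control within all 3 numbers were 4 of 9 members with shRNA-143 (BMPR2, SMAD3, SMAD7 and SKI), and 5 of 9 with shRNA-146, which adds SMAD4. Over all tested genes those shares were 26.8% and 21.5%. Both comparisons use the same 3 control libraries.

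**Figure D2:**
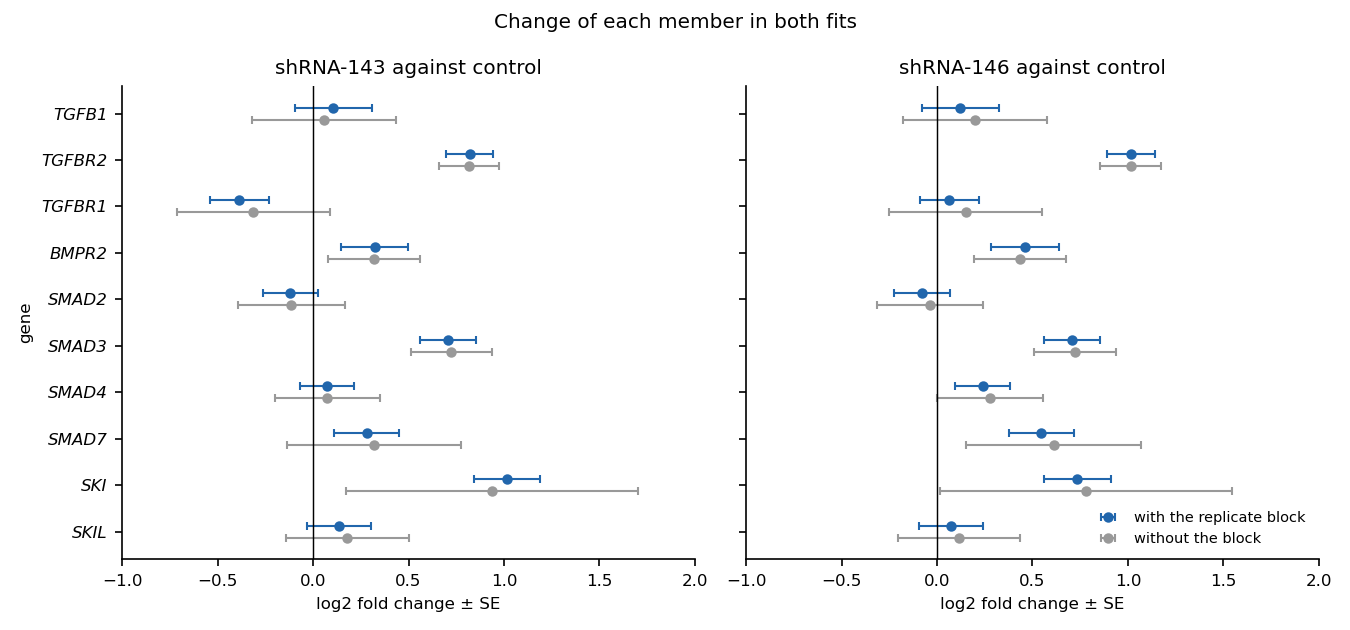
Log2 fold change against control with its standard error (horizontal axis) for the 10 members (vertical axis), in the fit with the replicate block (blue) and without it (grey), for shRNA-143 on the left and shRNA-146 on the right. The block moves each estimate by less than its standard error and shortens the bars most for SKI, from 0.77 to 0.17 with shRNA-143, and TGFBR2 (0.82 and 1.02) is drawn as a description.

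The hairpins were compared with each other over all 10 members, a contrast that the choice of TGFBR2 did not use. TGFBR2 was 0.20 ± 0.16 higher with shRNA-146 than with shRNA-143 on the log2 scale (adjusted p = 1, with the block 0.649), although its groups did not overlap, as for 4.49% of tested genes. TGFBR1 was 0.46 ± 0.40 higher with shRNA-146 and higher within all 3 numbers, as were 17.8% of tested genes, at ratios of 1.42, 1.35 and 1.33. With the block that difference was 0.45 ± 0.15 (adjusted p = 0.280). SMAD3 was at 31.3 CPM with shRNA-143 and 31.2 CPM with shRNA-146, a difference of 0.00 ± 0.15 on the log2 scale with the block (adjusted p = 0.999). SKI differed by -0.28 ± 0.17 with the block (adjusted p = 0.640). No member passed in either fit, at backgrounds of 0.0467% without and 1.20% with the block. At an unadjusted p under 0.05 there were 0 without the block and 1 with it, TGFBR1, beside 3.75% and 10.4% of all tested genes. DESeq2 passed 0.

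The replicate number moved the members unequally. Libraries numbered 1 differed from those numbered 2 and 3 by -2.05 ± 0.17 (SE, log2) in SKI, -1.05 ± 0.15 in SMAD7 and -0.83 ± 0.18 in TGFB1, whose longest transcripts have a GC content of 60.0%, 58.7% and 63.5%. They were 0.75 ± 0.13 higher in TGFBR1, 0.57 ± 0.12 in SMAD4 and 0.57 ± 0.12 in SMAD2, at 39.0%, 41.1% and 40.2% GC. The 3 members of highest GC content were thus low in the libraries numbered 1, and 3 of those at 41.1% or less were high, with BMPR2 (37.6%) at -0.27 and SKIL (33.4%) at -0.14. TGFBR2, at 47.4% GC, differed by 0.13 ± 0.11 and SMAD3, at 50.4%, by -0.33 ± 0.13. Over all tested genes cut into 5 equal bins of GC content, the median difference ran from 0.32 in the lowest bin to -0.54 in the highest. What the number stands for is not given in the labels, and its part in these values was not tested beyond the block.

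**Figure D3:**
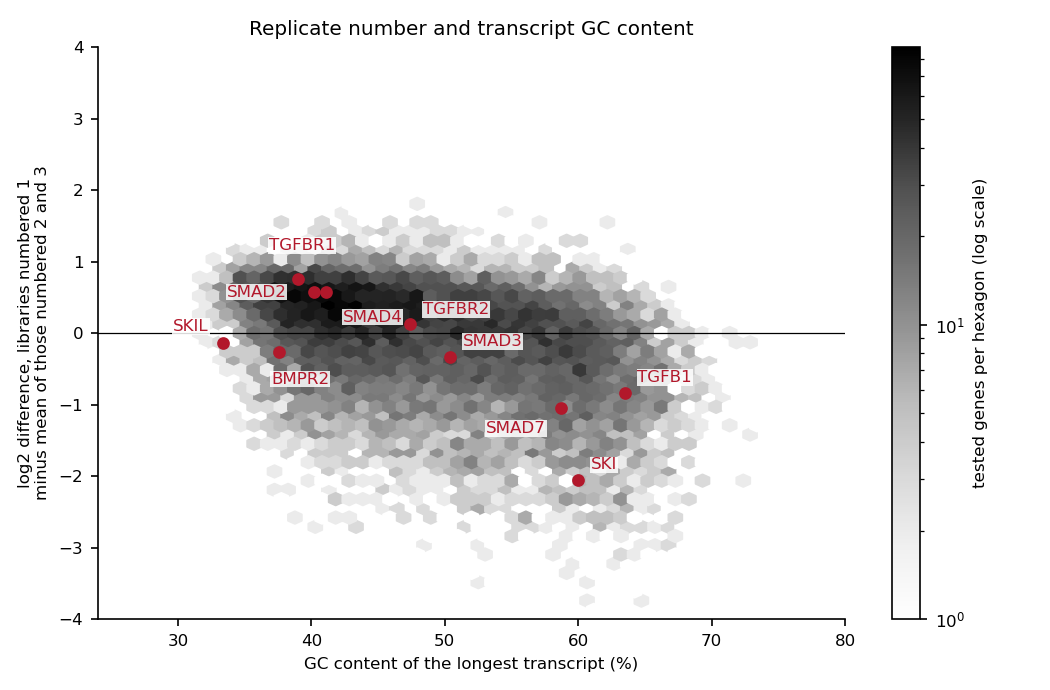
Log2 difference between libraries numbered 1 and the mean of those numbered 2 and 3 (vertical axis) against GC content of the longest transcript in percent (horizontal axis), with all tested genes in grey hexagons shaded by their number on a log scale and the 10 members in red. SKI lies lowest at -2.05, TGFBR1 highest at 0.75, and TGFBR2 near the middle at 0.13.

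Gene length also moved with the hairpins. With the block, the median log2 fold change over tested genes ran from -0.20 and -0.22 in the shortest of 5 equal length bins to 0.16 and 0.21 in the longest, for shRNA-143 and shRNA-146. SMAD3, SMAD2, SMAD4, BMPR2 and SKIL are in the longest bin. SKI and TGFBR1 are in the fourth, with medians of 0.084 and 0.096, SMAD7 and TGFBR2 in the third, with 0.012 and 0.014, and TGFB1 in the second, with -0.094 and -0.088. TGFBR2, SMAD3 and SKI differed from control by 0.70 or more with each hairpin, above the median of their bins. They were singled out for their rise, so this position was fixed by that choice and is no test of length. The correction for length and GC content lowered the SMAD3 change, as given above.

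Set per kilobase of gene length, the members were ordered in control as TGFB1, TGFBR1, SKI, SKIL, TGFBR2, SMAD4, BMPR2, SMAD7, SMAD2 and SMAD3. TGFB1 stood at 78.5 ± 21.4 CPM per kb (SD, n = 3) and no other member overlapped it. TGFBR1 at 10.7 ± 2.52, SKI at 8.38 ± 5.88 and SKIL at 7.32 ± 1.39 overlapped one another. TGFBR2 at 5.80 ± 0.472 lay within the range of SKI, touched that of SKIL and lay under every TGFBR1 library of control, 5.41 to 6.33 against 8.20 to 13.2 CPM per kb. With shRNA-143 it stood at 10.2 ± 0.213 and with shRNA-146 at 11.7 ± 0.647, inside the range of TGFBR1 in both groups. The 5 lowest members, from SMAD4 at 3.05 ± 0.541 to SMAD3 at 2.08 ± 0.160, were neighbours that overlapped in control, except that SMAD4 lay above SMAD3 in every control library. The deposited length of SMAD2, 36366 bases, sums all its annotated exons and lowers its level on this scale.

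The wider pathway was read from 9 lists by role, which hold 142 genes beside the members, 114 of them tested. These lists were chosen with earlier results of these libraries known. Without the block none of the 114 passed with either hairpin, with 10 and 15 at an unadjusted p under 0.05, where 6.80% and 8.81% of all tested genes were. DESeq2 passed 0 with shRNA-143 and 3 with shRNA-146, all upward (CDKN1A, ACVR1 and ACVR1C). Of all tested genes it passed 151 with shRNA-143 and 162 with shRNA-146, 99 of the latter upward. With the block 1 rose and 1 fell with shRNA-143, and 10 rose and 1 fell with shRNA-146. The upward share with shRNA-146 was 8.77%, beside 2.46% of all tested genes, and with shRNA-143 it was 0.877% beside 1.60%. These shares are not matched in gene length. In that fit the longest length bin had a median of 0.16 with shRNA-143 and 0.21 with shRNA-146. The median log2 fold change of the 114 was 0.11 with each hairpin.

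Among the roles, receptors had the largest upward share with shRNA-146, 33.3% without TGFBR2. Of the 9 tested type I and type II receptors other than TGFBR2, 1 rose with shRNA-143 and 3 with shRNA-146 in the fit with the block, beside 1.60% and 2.46% of all tested genes. Above 0 were 7 and 9 of them, beside 50.5% and 52.3% of all tested genes, which are not matched to them in length. ACVR1, a type I receptor of the bone morphogenetic protein and activin branches, was at 4.74, 5.27 and 4.33 CPM in control. ACVR1 stood at 8.90, 7.65 and 6.90 CPM with shRNA-143 and at 11.9, 12.1 and 8.70 CPM with shRNA-146. Both knockdown groups lay wholly above control. ACVR1 rose by 0.71 ± 0.17 with shRNA-143 and by 1.17 ± 0.17 with shRNA-146 in the fit with the block (adjusted p = 0.0464 and 0.00613, without it 0.499 and 0.178). The shRNA-143 call was lost without any of 7 libraries, all but shRNA-146 replicates 1 and 3 (adjusted p = 0.0973 to 0.268), and the shRNA-146 call without control replicate 2 alone (0.0677).

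The start region of ACVR1 is shown beside those of TGFBR2 and SMAD3 as a receptor gene that rose with both hairpins (RefSeq, GRCh38.p14, chr2:157876331-157876580, minus strand, GGAAA in capitals).
ACVR1: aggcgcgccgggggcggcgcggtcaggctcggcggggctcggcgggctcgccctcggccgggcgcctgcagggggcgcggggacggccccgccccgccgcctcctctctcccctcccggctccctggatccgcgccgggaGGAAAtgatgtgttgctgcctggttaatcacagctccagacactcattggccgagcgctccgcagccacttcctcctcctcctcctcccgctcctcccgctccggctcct
It holds 1 GGAAA match, 1 SMAD box and 2 SP1 boxes over both strands, with a GC content of 75.2%. Windows chosen in the same way for TGFBR1 and BMPR2 hold no GGAAA match, and that of SMAD7 holds 2. Those of TGFBR1 and BMPR2 end upstream of the annotated start of the gene, and that of SMAD7 lies within the gene. The bases next to these annotated starts were thus not searched.

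ACVR1C, the type I receptor also called ALK7, was at 0.700, 0.546 and 0.653 CPM in control and at 2.06, 1.46 and 1.25 CPM with shRNA-146, where it rose by 1.31 ± 0.28 (adjusted p = 0.0313). With shRNA-143 it was at 1.13, 0.974 and 1.05 CPM and did not pass (0.73 ± 0.29, adjusted p = 0.180). ACVR2B, an activin type II receptor, was at 22.4, 19.7 and 26.3 CPM in control, 21.0, 18.8 and 25.3 CPM with shRNA-143 and 39.5, 29.7 and 37.0 CPM with shRNA-146. Its shRNA-146 libraries lay above all others, and it rose by 0.64 ± 0.14 with that hairpin (adjusted p = 0.0297). With the correction for length and GC content the change was 0.34 and did not pass (adjusted p = 0.0606).

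Other calls with the block fell in the regulator and response lists. CDKN1A, the cell cycle inhibitor p21 and a textbook TGF-beta response gene, was at 49.4, 37.5 and 32.0 CPM in control, 78.7, 43.9 and 40.3 CPM with shRNA-143 and 90.3, 120 and 108 CPM with shRNA-146. The shRNA-146 libraries lay above all others, and CDKN1A rose by 1.47 ± 0.22 with that hairpin (adjusted p = 0.00764), a call lost without control replicate 2 or 3 (0.0727 and 0.0698). SMURF1, SMURF2 and NEDD4L, ubiquitin ligases that target receptors or SMADs, rose with shRNA-146 by 0.68 ± 0.15, 0.55 ± 0.13 and 0.60 ± 0.14 (adjusted p = 0.0354, 0.0421 and 0.0409). NEDD4L did not pass with the correction for length and GC content (0.30, adjusted p = 0.119). ZFYVE9, the anchor that brings SMAD2 and SMAD3 to the receptor, rose by 0.73 ± 0.17 (adjusted p = 0.0382) and ZEB2, a SMAD-binding repressor, by 0.79 ± 0.16 (adjusted p = 0.0258), which the correction lowered to 0.42 (0.0236).

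The textbook response genes moved in both directions. Of 25 tested, 3 rose (CDKN1A, SMURF2 and HBEGF) and 1 fell (ID3) with shRNA-146 in the fit with the block, where 4.42% of all tested genes passed, 2.46% upward. None passed with shRNA-143, and the list medians were 0.058 and 0.073 for shRNA-143 and shRNA-146. HBEGF, a growth factor of the EGF family, rose by 0.63 ± 0.15 (adjusted p = 0.0396). ID3, an inhibitor of basic helix-loop-helix factors that bone morphogenetic protein signalling induces, fell by 1.38 ± 0.34 (adjusted p = 0.0483) from 1.19, 2.69 and 2.72 CPM in control to 0.305, 1.68 and 0.732 CPM. With library size alone in place of the scaling, ID3 did not pass (adjusted p = 0.0673). In the shRNA-143 comparison the call downward was CTDSP2, a phosphatase that acts on SMADs, at 133, 123 and 110 CPM in control and 95.1, 74.9 and 70.6 CPM with the hairpin. CTDSP2 fell by 0.61 ± 0.12 (adjusted p = 0.0251), and at 144, 127 and 118 CPM with shRNA-146 it did not pass (adjusted p = 0.696).

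With the block and 1 library left out, 27 to 1745 genes passed with shRNA-146, beside 662 with all 9 libraries. The calls above share the control libraries, and many were lost when 1 library of control or of another group was left out. Those of ACVR1C, ACVR2B, ZEB2, SMURF1, SMURF2, ZFYVE9, HBEGF, NEDD4L and ID3 with shRNA-146 were each lost without any 1 control library (adjusted p = 0.0599 to 0.240), and each also without shRNA-143 replicate 2 (0.0522 to 0.113). All but ZEB2 were also lost without shRNA-143 replicate 3 (0.0590 to 0.0909). Without shRNA-146 replicate 2 all but ZEB2 and ID3 were lost (0.0812 to 0.146), without shRNA-146 replicate 3 all but ACVR1C, ACVR2B and ZEB2 (0.0544 to 0.118), and without shRNA-143 replicate 1 that of SMURF2 (0.0532). The call of CTDSP2 was lost without any of 7 libraries, all but shRNA-146 replicates 1 and 3 (0.0554 to 0.230). The remaining roles gave few calls or none: with the block 0 of 13 tested ligands, 0 of 10 genes of latency and extracellular control and 0 of 18 genes of SMAD-independent signalling passed with either hairpin. At an unadjusted p under 0.05 there were 5, 2 and 3 with shRNA-143 and 2, 3 and 2 with shRNA-146, beside 20.7% and 23.5% of all tested genes. Exons of CDKN1A, ZEB2, SMURF1, SMURF2, ZFYVE9 and NEDD4L overlap another annotated gene, so their counts are uncertain.

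**Figure D4:**
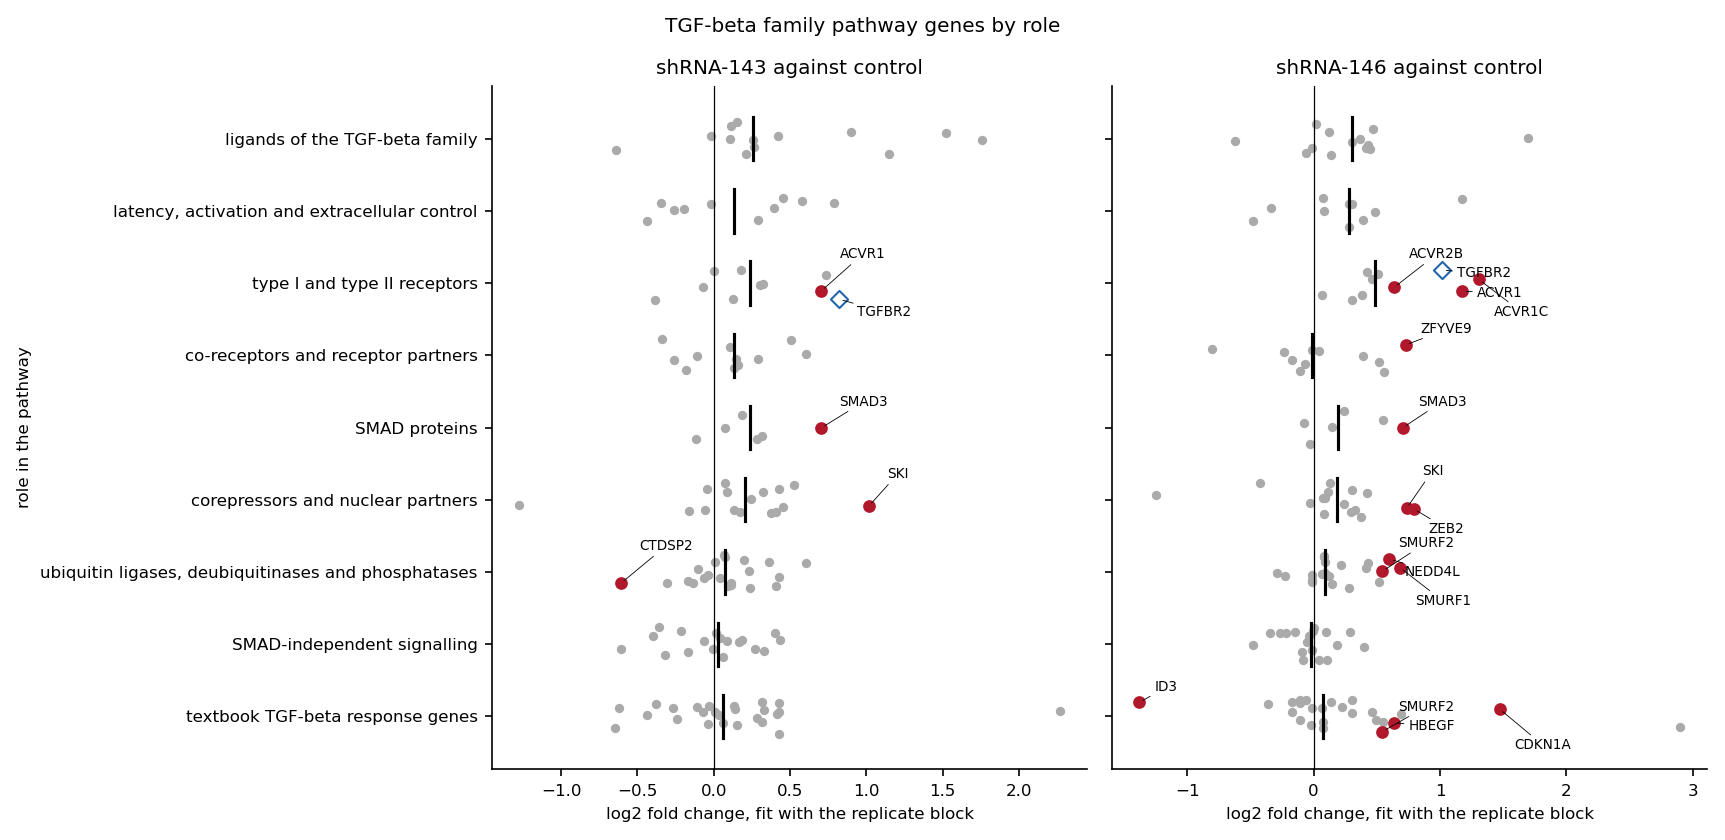
Log2 fold change against control in the fit with the replicate block (horizontal axis) for the tested genes of 9 pathway lists by role (vertical axis), for shRNA-143 on the left and shRNA-146 on the right, with list medians as black bars, genes that passed in red and TGFBR2, which was not tested, as an open blue diamond. With shRNA-146 the 9 tested receptors other than TGFBR2 lie above 0, as do 52.3% of all tested genes, which are not matched in length.

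The 5 tested genes whose log2 CPM ran closest to that of TGFBR2 over the 9 libraries were F2R, YES1, VPS52, ERLIN1 and OCRL, with Pearson's r of 0.990, 0.988, 0.984, 0.980 and 0.978. The libraries share the same 3 groups, so genes that differ between groups in the same direction score high on this measure. YES1, a SRC-family kinase, was at 15.3, 14.5 and 12.5 CPM in control, 36.3, 33.1 and 37.9 CPM with shRNA-143 and 64.8, 50.4 and 48.4 CPM with shRNA-146. OCRL, an inositol phosphatase, was at 24.9, 30.6 and 25.5 CPM, 64.1, 69.5 and 65.9 CPM, and 100, 86.0 and 74.5 CPM in the same order. The groups of both genes climbed in the order seen for TGFBR2 without overlap between them. F2R, the thrombin receptor, did so at lower levels, from 1.52 to 2.13 CPM in control to 3.66 to 4.11 CPM with shRNA-146. ERLIN1, a protein of the endoplasmic reticulum, and VPS52, a subunit of a vesicle-tethering complex, had log2 differences of 0.77 ± 0.16 and 0.33 ± 0.15 with shRNA-146. No other member was among these 5.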

How the data were processed

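RNA of 9 THP-1 libraries, 3 per group, was analysed from the authors' deposited table of raw read counts per gene, which was tested as deposited. Tools listed in the submitters' processing notes are fastp, STAR 2.5, featureCounts and DESeq2, with the hg38 build, and no role is given for any. The authors' deposited comparison tables hold log2 fold changes and p-values of their own, used only where named, and their counts equal the count table in all 23828 and 23854 listed genes. The normalized signal and FPKM columns deposited by the authors were not used for any value; gene lengths were. Per the labels, replicates are numbered 1 to 3.

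Counts were filtered with filterByExpr, scaled by TMM and tested in edgeR 4.0.16 (R 4.3.3) with the quasi-likelihood test over all 9 libraries, 6 residual degrees of freedom, and Benjamini-Hochberg adjustment over 14975 genes at 0.05. The 14975 genes hold at least 99.9% of the counts of each library. Standard errors follow from the fold change and its F statistic. Pairing was checked on deviations from group means (log2 CPM, prior count 2): 9 pairs of the same number had r of 0.252 to 0.758, above the criterion of 0.1 in every pair, and 18 pairs of different numbers had -0.678 to 0.535. The pairing comes from the data, and the block leaves 4 residual degrees of freedom. Replicates differed by far more than counting noise (chi-square per degree of freedom 20.3 to 389). Alternatives were other scalings, no filter, DESeq2 1.42.0, only the groups compared, loss of each library, and, chosen after seeing the data, replicates 2 and 3 only and a correction for length and GC content. The scripts were tested on simulated data.

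Named were all 10 members, the pathway genes that passed in the fit with the block, the 5 genes most like TGFBR2 and NFATC2. The cell type markers, BMP2 and TGFB2 were named after their values were seen. The members and lists were chosen with earlier results of these data known. Promoters came from the RefSeq table for GRCh38.p14, which has starts for 9 of the members, 5 of them with a window free of GENCODE 29 exons.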

Additional observations from a re-analysis of the deposited data

Results flagged for a closer look

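With the replicate block, 4 of the 114 tested pathway genes beside the members differed between the hairpins themselves (shRNA-146 minus shRNA-143, log2, edgeR adjusted p). That is 3.51%, all higher with shRNA-146, beside 1.20% of all tested genes in either direction. The contrast sets the knockdown groups against each other, but its fit held all 9 libraries, those of control included. ACVR2B was 0.7095 higher with shRNA-146 (adjusted p = 0.0336), CTDSP2 0.6982 higher (0.0205) and CDKN1A 1.042 higher (0.04998). Each was higher within all 3 replicate numbers, as were 17.8% of all tested genes. BMP2, a ligand named here after its values were seen, was 0.9403 higher (0.0442), at 2.13, 2.11 and 2.95 CPM with shRNA-143, 3.91, 4.78 and 5.06 CPM with shRNA-146 and 3.26, 3.83 and 4.05 CPM in control. Without the block none of the 4 passed in edgeR (adjusted p = 0.733, 0.598, 0.765 and 0.539 for ACVR2B, CTDSP2, CDKN1A and BMP2), and DESeq2 passed BMP2 but not the other 3. With it, leaving out single libraries ended the call of ACVR2B in 6 of 9 cases, CTDSP2 in 5, CDKN1A in 8 and BMP2 in 8, with adjusted p up to 0.283, 0.272, 0.369 and 0.433. CDKN1A also did not pass with the block and library size alone (adjusted p = 0.0932). DESeq2 without the block passed 1 more pathway gene, TGFB2, a ligand that was lower with shRNA-146. Of all tested genes 89 passed in that fit. In edgeR with the block TGFB2 differed by -1.77 ± 0.43 and did not pass (adjusted p = 0.0955).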

How the results depend on the processing

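The number of genes called moved with most alternatives, and the cause was not tested. Without the block 7, 5 and 7 genes passed with shRNA-143, with shRNA-146 and between the 2 hairpins. In that order the counts were 474, 662 and 179 with the replicate block, 414, 835 and 186 with the block and library size alone, 151, 162 and 89 with DESeq2, and 1, 0 and 0 with only the groups compared. They were 589, 951 and 160 over replicates 2 and 3, 1575, 2111 and 319 over those with the block, and 1336, 1547 and 521 with the block and a correction for length and GC content. Library size alone gave 16 and 2 against control, and median-of-ratios size factors gave 3 with shRNA-146. Without 1 library, over both fits, the counts ran from 1 to 2099, 0 to 1745 and 0 to 344. At an unadjusted p under 0.05 the fit without the block had 1319 genes with shRNA-146 and 561 between the hairpins.

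Of 9 members other than TGFBR2, 0 passed without the block over all 9 libraries. With shRNA-143 there were 2 in each fit with the block over all libraries or over replicates 2 and 3, and 1 over replicates 2 and 3 without it. With shRNA-146 there were 2 with the block, 2 with the block and library size alone, 1 over replicates 2 and 3, 3 over those with the block, and 4 with the length and GC correction. Of the last 4, 3 rose and 1, SMAD2, fell. In the same order 662, 835, 951, 2111 and 1547 of all genes passed with shRNA-146. Without 1 library the member counts were 0 to 2 with shRNA-143 and 0 to 3 with shRNA-146. Between the hairpins 0 of 10 passed in every alternative run. Over all 9 libraries the block alone changed no member call other than those of SMAD3 and SKI, and over replicates 2 and 3 it also added SMAD7 with shRNA-146.

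Of 840 values of member fold changes under alternatives, 80 changed sign, none with an adjusted p under 0.638. For shRNA-143 they were TGFB1 over replicates 2 and 3 (-0.036, with the block -0.036) and SMAD4 with the length and GC correction (-0.081). For shRNA-146 they were SMAD2 with library size alone (0.068, with the block 0.052) and, over replicates 2 and 3, TGFBR1 (-0.014, with the block -0.075) and SKIL (-0.017, with the block -0.097). The correction gave -0.060 for TGFBR1, -0.027 for SMAD4 and -0.086 for SKIL. Between the hairpins SMAD3 was 0.0011 with the block, 0.044 with library size alone, 0.043 with that and the block, and 0.0064 with only those groups. Over replicates 2 and 3 BMPR2 was -0.11 (block -0.13) and SMAD2 -0.12 (block -0.12), and with the correction SMAD2 was -0.12.

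Leaving out 1 library, over both fits, also turned signs. For shRNA-143 the ranges were -0.15 to 0.34 for SKIL, -0.28 to 0.020 for SMAD2, -0.089 to 0.22 for SMAD4, -0.11 to 0.58 for SMAD7 and -0.17 to 0.24 for TGFB1. For shRNA-146 they were -0.13 to 0.36 for SKIL, -0.39 to 0.13 for SMAD2, -0.063 to 0.45 for SMAD4, -0.077 to 0.54 for TGFB1 and -0.20 to 0.44 for TGFBR1. Between the hairpins they were -0.11 to 0.31 for BMPR2, -0.61 to 0.40 for SKI, -0.31 to 0.26 for SKIL, -0.28 to 0.24 for SMAD2, -0.14 to 0.13 for SMAD3, -0.14 to 0.37 for SMAD4, -0.046 to 0.72 for SMAD7 and -0.18 to 0.49 for TGFB1. TGFBR2 and the SMAD3 and SKI changes against control kept their sign in all alternatives run.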
